A study of Mus musculus with 45 samples.

Results

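Chromatin accessibility at 9 mitophagy and autophagy genes was measured in erythroblasts of mice with an intact or a deleted Stag2 gene. The 9 genes, Bnip3l, Fundc1, Ulk1, Gabarapl2, Map1lc3b, Sqstm1, Pink1, Optn and Foxo3, were chosen by name for their known roles, out of 24333 genes in the deposited table, and all 9 were found there. The values are gene scores, a signal that sums the ATAC fragments (DNA cut where chromatin is open) around a gene in each nucleus, so they describe accessibility and not RNA or protein. The series held 45 samples, of which the 6 ATAC libraries of Ter119+ erythroblasts were analysed. Ter119 is a surface antigen of red cell precursors, and the libraries were the ATAC side of single-nucleus multiome preparations. The WT group was 3 libraries from Stag2 WT mice, and the KO group was 3 libraries from Stag2 KO (∆) mice. Both groups had been given pIpC, a synthetic double-stranded RNA, and were sampled once 6 to 8 weeks had passed since its final dose. The recombinase used for the deletion and the number of animals behind a library were not given in the sources used here, so the p-values measure the spread between these libraries. The Stag2 protein belongs to cohesin, which holds DNA in loops.

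A red cell precursor loses its nucleus and then its mitochondria and ribosomes, and autophagy removes much of this content. In autophagy a kinase complex starts a membrane, ATG8-family proteins are attached to it, and cargo receptors tie the material to be removed to those proteins. Mitophagy is the form that removes mitochondria, either through receptors built into the outer mitochondrial membrane or through ubiquitin laid down by the Pink1 and parkin pathway. Bnip3l is the outer-membrane receptor best known from reticulocytes, where it is needed for the clearance of mitochondria, and Foxo3 is a transcription factor that promotes late erythroid maturation and autophagy genes.

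The promoters of 3 members are shown because the results turn on the first and the second, Optn and Map1lc3b, and because the third, Pink1, was the member whose promoter held a GATA motif, the core motif of the erythroid factor Gata1. They are the 250 bases before the start used in the RefSeq promoter table (GRCm38.p6), printed in the direction of transcription: Optn at chr2:5064118-5064367 (minus strand), Map1lc3b at chr8:121590188-121590437 (plus strand) and Pink1 at chr4:138326297-138326546 (minus strand). Capitals mark matches to CCNCNCCC on either strand, with any letter at N. It is a loose pattern of the CACC box, the motif of Kruppel-like factors. In Pink1 they also mark the match to a GATA motif (AGATAA, with T also allowed as its first letter and G as its last, on either strand).
Optn: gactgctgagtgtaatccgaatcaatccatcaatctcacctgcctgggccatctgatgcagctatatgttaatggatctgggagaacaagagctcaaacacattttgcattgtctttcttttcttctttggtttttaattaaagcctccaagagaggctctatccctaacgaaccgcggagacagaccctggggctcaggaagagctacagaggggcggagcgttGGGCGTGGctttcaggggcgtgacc
Map1lc3b: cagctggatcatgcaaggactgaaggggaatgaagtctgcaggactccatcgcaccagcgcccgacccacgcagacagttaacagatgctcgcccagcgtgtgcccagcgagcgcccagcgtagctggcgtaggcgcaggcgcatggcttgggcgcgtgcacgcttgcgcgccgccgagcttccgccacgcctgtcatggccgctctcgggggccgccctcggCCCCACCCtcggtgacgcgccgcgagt
Pink1: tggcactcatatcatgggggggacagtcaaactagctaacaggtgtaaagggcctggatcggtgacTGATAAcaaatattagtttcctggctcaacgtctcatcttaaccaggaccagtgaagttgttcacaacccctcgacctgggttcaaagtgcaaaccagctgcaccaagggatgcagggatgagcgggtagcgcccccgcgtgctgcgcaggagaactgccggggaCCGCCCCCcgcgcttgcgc
The promoter table held 8 of the 9 members, and Bnip3l was not among them. A match to the loose CACC pattern was found in 8 of the 8, against 45.6% of the 27025 promoters in the table, and a GATA motif in 1 of 8, against 27.1%. These shares were not matched on base content. The matches of Ulk1, Gabarapl2, Pink1, Foxo3 and Sqstm1, such as CCCCGCCC or CCGCCCCC, held no CAC on either strand. Optn, Map1lc3b and Fundc1 each had a match with CAC. The CACC match of Optn lay 25 to 18 bases before the start, that of Map1lc3b 27 to 20 bases and that of Pink1 19 to 12 bases, while the GATA match of Pink1 lay 184 to 179 bases before it. In the other promoters, Foxo3 held 4 CACC matches, Ulk1, Sqstm1 and Fundc1 held 3 each and Gabarapl2 held 1, with some matches of Sqstm1 overlapping. The FOXO motif TGTTTAC (3.09% of all promoters), the E-box CACGTG of lysosomal gene promoters (6.05%) and the STAT motif TTCNNNGAA (7.18%) were found in 0 of 8. These are matches of letters only. For Optn the stretch printed lies inside the RefSeq gene span, whose minus-strand start is at 5064399, and upstream of the start in the deposited gene table, 5063938, so its distances count from the start of the promoter table alone.

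In the deposited gene table, which follows mm10, the members lie at chr14:66985240-67008877 (Bnip3l), chrX:17555600-17572325 (Fundc1), chr5:110784489-110810081 (Ulk1), chr8:111940703-111952915 (Gabarapl2), chr8:121590468-121598047 (Map1lc3b), chr11:50200152-50210820 (Sqstm1), chr4:138313409-138326296 (Pink1), chr2:5020642-5063938 (Optn) and chr10:42185786-42276742 (Foxo3). Gabarapl2 and Map1lc3b are on the plus strand and the other 7 on the minus strand.

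The table held 34073 nuclei, from 4617 to 6990 per library, with median fragments per nucleus of 7122.5 to 8874. The authors' classes gave 2043 to 3999 Int and 2176 to 4527 Late nuclei per library. Early reached the minimum of 50 nuclei in the first and second WT libraries (102 and 235) and the first KO library (310). The class labels are read as early, intermediate and late. Median fragments fell across the classes, from 41018 to 44045.5 in those Early sets to 10121 to 14998 in Int and 5693 to 6812 in Late. In all, 725 nucleus barcodes occurred in more than 1 library. The gene score of Stag2 was 64.2, 65.7 and 65.9 in the WT and 61.0, 65.1 and 62.4 in the KO libraries, and since a score over a whole gene need not show a deletion within it, it does not check the genotype. All 14 erythroid markers in the table were above 0. Their summed score in Late nuclei was 2678 to 2746 in WT and 2314 to 2336 in KO. Markers of other cells were also above 0. Their summed Late scores in WT and KO were 238 to 267 and 253 to 271 for 12 macrophage and monocyte genes, 248 to 268 and 262 to 295 for 9 neutrophil genes, 261 to 303 and 290.0 to 306 for 8 megakaryocyte genes, 74.6 to 81.3 and 99.2 to 103 for 7 B cell genes, 85.8 to 89.9 and 116 to 122 for 7 T and NK cell genes, and 42.8 to 51.4 and 65.3 to 71.9 for 8 stem and progenitor genes. The median percentile among all genes was 26.4 to 50.4 for these lists and 94.4 for the erythroid list. Single genes stood well above their lists, among them Cd68 (97.1), Cebpe (93.7) and Klrb1c (80.5). Erythroid sums were apart between the genotypes over all nuclei (2453 to 2619 in WT, 2149 to 2265 in KO) and in Int (2275 to 2449 and 2093 to 2197) too, as were the B cell and the T and NK cell sums, which were higher in KO. Neutrophil sums were apart in Int (160 to 184 in WT, 204 to 217 in KO), and stem and progenitor sums over all nuclei (66.6 to 84.0 and 84.9 to 102). The share of fragment ends in peaks in Late nuclei was also apart, with library medians of 64.1% to 66.4% in WT and 60.3% to 61.8% in KO. The part of these differences in the results below was not tested.

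Across the classes, 7 of the 9 members had higher scores in Late than in Int nuclei in 6 of 6 libraries, Optn was lower in 5 of 6 and Fundc1 was split 3 to 3. Over all 15873 genes scored in both classes, 29.1% were higher in Late in 6 of 6 libraries, 41.4% were lower in 6 of 6, and the median difference was -0.09 on the log2 scale. All levels here are scaled gene scores, the mean over a library's nuclei brought to a sum of 1000000 over genes, and differences are on the log2(score + 1) scale. The authors may have set the classes from the same accessibility data, so these differences are given as a description with no test.

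**Figure D1:**
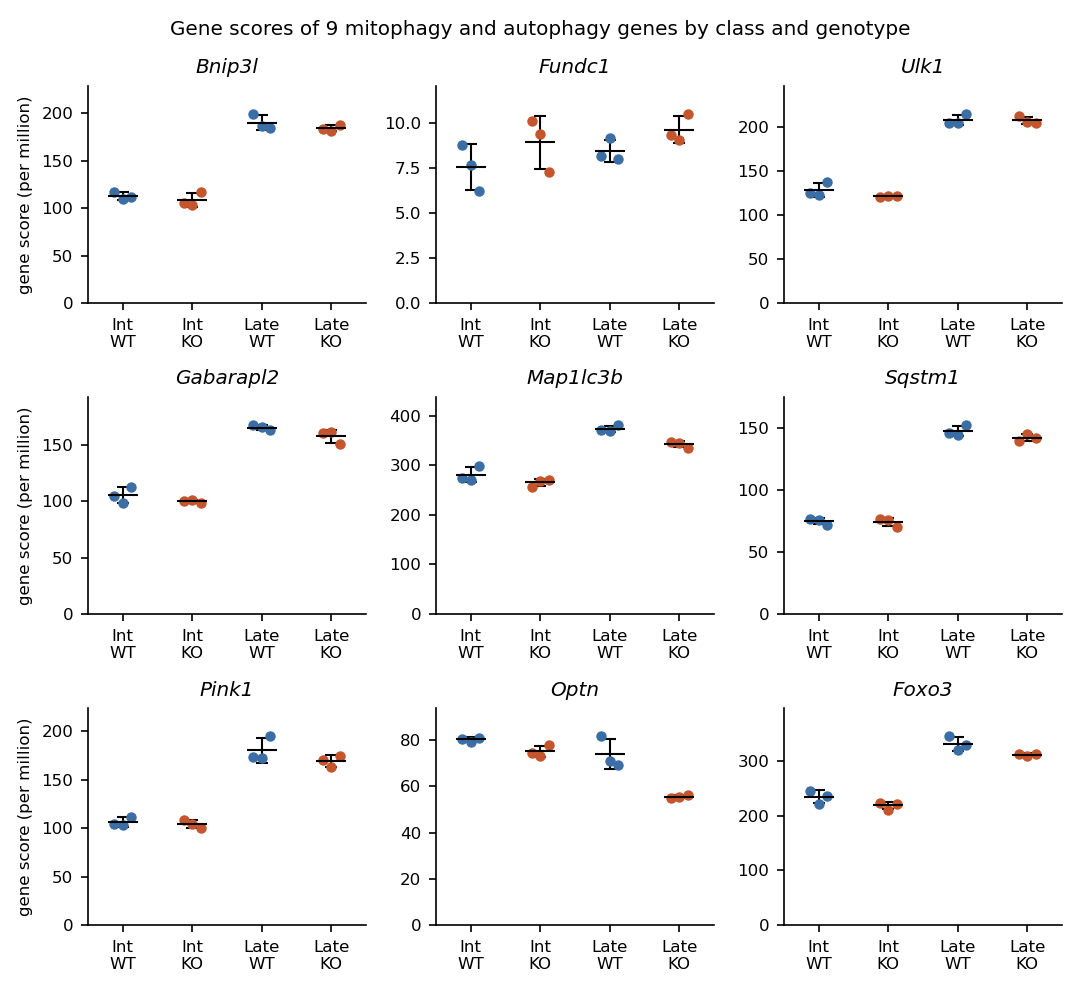
Scaled gene score, summing to 1000000 over genes (y axis), of the 9 members in Int and Late nuclei of WT (blue) and KO (red) libraries, 1 point per library, with the mean and SD of 3 libraries as bars. Late points lie above Int points for 7 members, and the Late points of Optn separate WT (69.4 to 81.7) from KO (54.9 to 56.1).

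Among the receptors of the outer mitochondrial membrane, Bnip3l had Int scores of 117, 110 and 111 in the WT and 106, 103 and 117 in the KO libraries, and Late scores of 199, 186 and 185 in WT and 183, 181 and 188 in KO. Every Late value was above every Int value, and the WT libraries differed by 0.75 ± 0.02 and the KO libraries by 0.76 ± 0.07 between Late and Int (mean ± SD over 3 libraries, as for the differences that follow). Its Early scores, 90.2 and 85.5 in WT and 87.6 in KO, were below all Int values, so the order was Early, Int, Late with no overlap. Fundc1, the receptor linked to mitophagy under low oxygen, had low scores throughout. They were 8.80, 7.65 and 6.22 in Int WT, 10.1, 9.39 and 7.31 in Int KO, 8.15, 9.17 and 8.03 in Late WT and 9.37, 9.07 and 10.5 in Late KO, and its highest values were Early (13.2, 13.4 and 15.1). Only Int and Late overlapped, and a score above 0 was seen in 8.68% to 16.7% of Int and 5.82% to 7.54% of Late nuclei. Among Int and Late nuclei of a library matched on fragments per nucleus, these shares were 4.30% to 8.73% in Int and 6.03% to 9.34% in Late, and the ranges overlapped.

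Ulk1, the kinase that starts the autophagosome, had Int scores of 125, 122 and 138 in WT and 121, 121 and 121 in KO. Late scores were 204, 205 and 215 in WT and 213, 206 and 204 in KO, a difference of 0.69 ± 0.05 in WT and 0.77 ± 0.04 in KO. Early scores were 92.8 to 98.4, below all Int values. The 2 ATG8-family members, the membrane-bound proteins to which cargo receptors attach, had the same order. Gabarapl2 had Int scores of 105, 99.0 and 113 in WT and 100.3, 101 and 98.9 in KO, Late scores of 167, 166 and 163 in WT and 160.3, 162 and 151 in KO, and Early scores of 60.2 to 62.9. Map1lc3b had Int scores of 274, 271 and 299 in WT and 257, 268 and 270.3 in KO, Late scores of 371, 369 and 380.3 in WT and 346, 345 and 335 in KO, and Early scores of 149 to 172. The Late minus Int difference was 0.65 ± 0.11 and 0.65 ± 0.04 for Gabarapl2 and 0.41 ± 0.05 and 0.37 ± 0.06 for Map1lc3b, in WT and KO. Neither gene had overlapping classes.

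The soluble cargo receptors Sqstm1 and Optn, which bind ubiquitin on the cargo and ATG8 proteins on the membrane, went opposite ways. Sqstm1 had Int scores of 76.6, 76.0 and 72.0 in WT and 76.4, 75.5 and 70.4 in KO, and Late scores of 146, 145 and 152 in WT and 139, 145 and 142 in KO. Its difference of 0.97 ± 0.09 in WT and 0.93 ± 0.07 in KO (fold 1.96 and 1.91) exceeded that of each other member in both genotypes, while its Early scores (86.0 in the lowest library, 89.9 in the highest) lay between Int and Late. Optn had Int scores of 80.7, 79.3 and 81.0 in WT and 74.6, 73.4 and 78.0 in KO. Its Late scores were 81.7, 71.0 and 69.4 in WT and 54.9, 55.6 and 56.1 in KO. The difference was -0.12 ± 0.12 in WT, where the first library was slightly higher in Late, and -0.43 ± 0.04 in KO, and Early scores (99.0 and 97.4 in WT, 91.8 in KO) were above all others.

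Pink1, the kinase that marks damaged mitochondria for parkin, had Int scores of 105, 103 and 112 in WT and 108, 104 and 99.8 in KO, and Late scores of 174, 172 and 195 in WT and 171, 163 and 175 in KO. Foxo3 had Int scores of 246, 223 and 236 in WT and 224, 211 and 222 in KO, and Late scores of 346, 321 and 330 in WT and 313, 309 and 314 in KO. The differences were 0.75 ± 0.04 and 0.70 ± 0.09 for Pink1 and 0.50 ± 0.02 and 0.51 ± 0.03 for Foxo3. Early scores of Pink1 (82.8 to 99.0) were just below its Int scores, and those of Foxo3 (220.3 to 234) overlapped them.

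**Figure D2:**
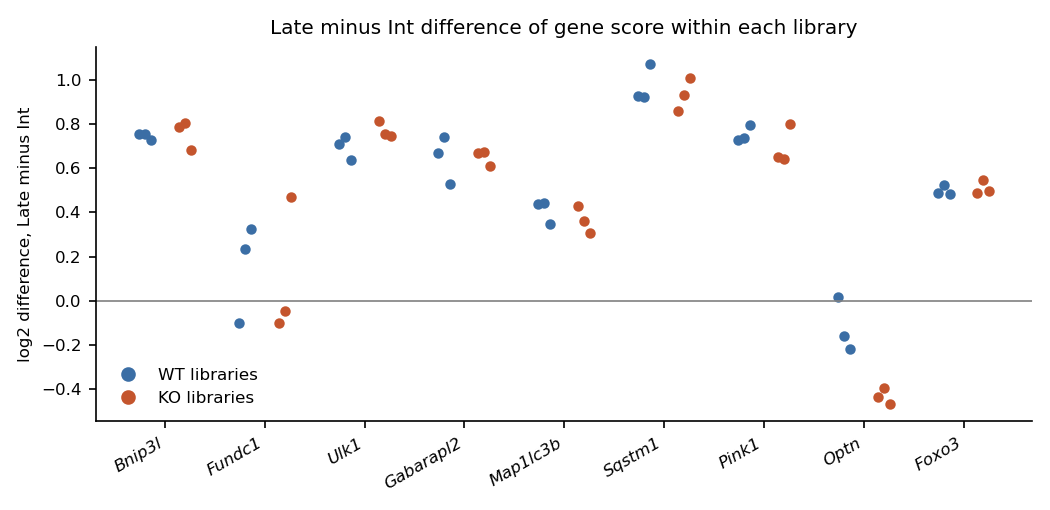
Late minus Int difference of log2(score + 1) within each library (y axis) for the 9 members, WT blue and KO red. Bnip3l, Ulk1, Gabarapl2, Map1lc3b, Sqstm1, Pink1 and Foxo3 lie above 0 in 6 of 6 libraries, and Optn lies at -0.39 or below in the KO libraries.

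When Int and Late nuclei of each library were matched on fragments per nucleus, the same 7 members stayed higher in Late in 6 of 6 libraries. Sqstm1 then differed by 0.96 in WT and 0.92 in KO, Map1lc3b by 0.31 and 0.27, and Optn by -0.04 and -0.33. Over the 12 library and class means, the 7 members that were higher in Late had pairwise Pearson r of 0.95 to 0.99, Optn had r of -0.65 to -0.45 with them and Fundc1 0.09 to 0.38. These 12 points come from 6 libraries and mostly separate Int from Late, so the r values describe the class difference again.

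In Stag2 KO, the scores of Optn and Map1lc3b were lower than in WT over all nuclei and in Late nuclei, and no other member passed the test in any of the 3 fits. Optn was 0.847 times its WT level over all nuclei and 0.755 times in Late nuclei, and Map1lc3b was 0.915 and 0.916 times. When log2 values were averaged per nucleus in place of scores, which is another scale, Optn was at -0.08 over all nuclei and -0.13 in Late and still passed the test, against -0.24 and -0.40 on the scale used here. Of all genes, 14.2% were called lower and 29.1% higher over all nuclei, 7.10% and 12.7% in Int, and 18.5% and 32.9% in Late. The 2 of 9 members called lower over all nuclei and in Late (limma, Benjamini-Hochberg adjusted p under 0.05, 17682 and 15886 genes tested) are set against those shares, and 0 of 9 were called in Int. At an unadjusted p under 0.05 the members counted 2 of 9 over all nuclei, 0 of 9 in Int and 3 of 9 in Late. Over all genes tested the counts were 9466 of 17682, 6304 of 19465 and 9213 of 15886. All 9 members passed the filter on low scores in each fit.

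**Figure D3:**
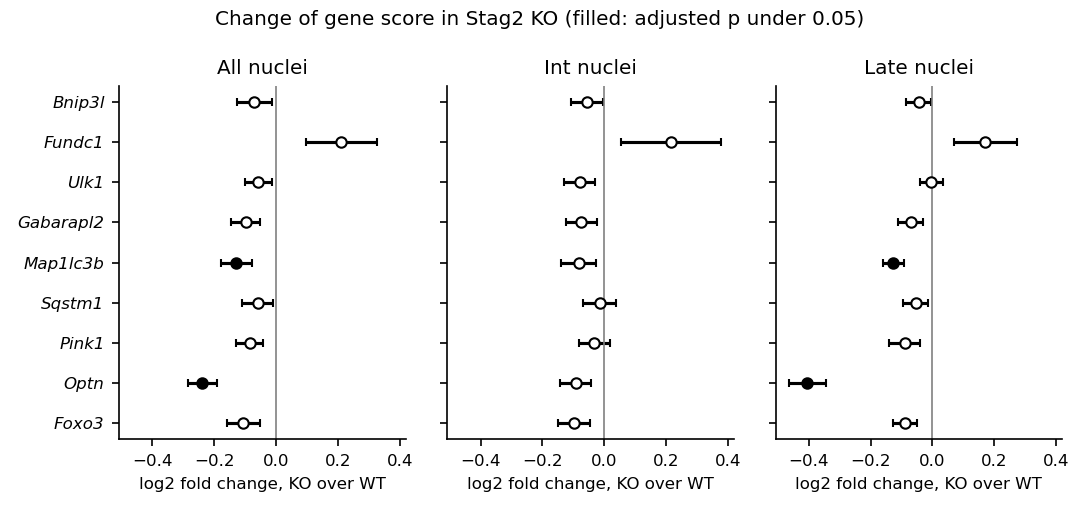
KO minus WT log2 fold change (x axis) of the 9 members over all, Int and Late nuclei, with the standard error as bars and filled points where the adjusted p was under 0.05. Optn (-0.24 over all nuclei, -0.40 in Late) and Map1lc3b (-0.13 in both) are filled, and no member is filled in Int.

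Optn over all nuclei scored 81.6, 75.7 and 76.2 in the WT and 66.8, 63.6 and 66.9 in the KO libraries, with every KO library below every WT library. KO minus WT was -0.24 on the log2 scale (SE 0.05), with a limma adjusted p of 0.000796. In Late nuclei the values given above separated in the same way, at -0.40 (SE 0.06) and a limma adjusted p of 0.000119. In Int nuclei every KO library was again below every WT library, and the change of -0.09 (SE 0.05) did not pass the test (limma adjusted p = 0.200). A higher share of Late nuclei had an Optn score above 0 in WT (56.8%, 51.6% and 47.4%) than in KO (42.6%, 41.9% and 44.9%). Among Late nuclei matched on fragments across libraries these shares were 53.2%, 49.4% and 49.4% in WT and 42.5%, 41.4% and 42.5% in KO, and KO minus WT was -0.46. A lower mean of a library can come from fewer nuclei of one kind or from less signal per nucleus, and these cannot be told apart here.

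Map1lc3b over all nuclei scored 336, 317 and 333 in the WT and 290, 310.2 and 303 in the KO libraries, with no overlap. KO minus WT was -0.13 (SE 0.05), with a limma adjusted p of 0.0484 close to the threshold. The call was kept in 5 of 18 alternative settings, with adjusted p from 0.0223 to 0.208 and the highest under cyclic loess. Its value moved from -0.06 under loess to -0.27 under median centring. Leaving out any library but the second WT library ended it, with adjusted p from 0.0580 to 0.160 and values from -0.15 to -0.10. In Late nuclei it was -0.13 (SE 0.03), with a limma adjusted p of 0.00846, and was kept in 17 of 18 settings, lost only without the variance trend (adjusted p = 0.0562). In Int nuclei it was -0.08 (limma adjusted p = 0.312), with KO scores of 257 to 270.3 just under WT scores of 271 to 299. The mix of classes differed between libraries. Late nuclei were 4527 of 6865, 3021 of 5819 and 2971 of 6990 in the WT libraries. In the KO libraries they were 2176 of 4857, 2549 of 4617 and 2508 of 4925. Early nuclei were 102, 235 and 20 in WT and 310, 25 and 16 in KO. The part of this mix in the values over all nuclei was not tested.

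No call was made for the other 7 members. Foxo3 in Late nuclei came nearest, at -0.09 (SE 0.04) and a limma adjusted p of 0.0629, with KO libraries at 309 to 314 and WT libraries at 321 to 346 and no overlap. In Late, Foxo3 was called in 3 of 18 alternative settings (limma adjusted p of 0.0133 at the lowest), and Gabarapl2, Pink1 and Sqstm1 in 1 each. Foxo3 was at -0.11 over all nuclei (adjusted p = 0.112), again with no overlap, and at -0.10 in Int (adjusted p = 0.200). Gabarapl2 was at -0.10 over all nuclei (adjusted p = 0.0958), -0.07 in Int and -0.07 in Late, where its groups did not overlap. Pink1 was at -0.09 over all nuclei (adjusted p = 0.106), where the groups did not overlap, -0.03 in Int and -0.09 in Late. Bnip3l was at -0.07, -0.06 and -0.04 and Sqstm1 at -0.06, -0.01 and -0.05, with overlapping groups. Ulk1 was at -0.06, -0.08 and 0.00 (rounded), its groups did not overlap in Int, and its Late scores in KO (204 to 213) overlapped those in WT (204 to 215). Fundc1 was the member with a positive value, 0.21, 0.22 and 0.17 (adjusted p = 0.138, 0.370 and 0.167), and every KO library (8.95 to 10.1) was above every WT library (6.99 to 8.67) over all nuclei. Quantile and loess scaling turned Fundc1 negative over all and in Late nuclei.

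Over all genes the KO change varied with the height of the score. Over all nuclei the median log2 fold change was 0.26 in the lowest quartile of mean score and -0.07 in the highest, and in Late it was 0.33 and -0.06. The members had medians of -0.09 over all nuclei, -0.07 in Int and -0.07 in Late, and 7, 8 and 7 of the 9 fell in the highest quartile, whose medians were -0.07, -0.06 and -0.06 and of whose genes 31.4%, 17.8% and 32.8% were called lower. Over all genes tested the medians were 0.10, 0.06 and 0.05. Median centring gave each library the same median log2 score, which need not set the median change to no change. It moved Optn from -0.24 to -0.38 over all nuclei, from -0.09 to -0.27 in Int and from -0.40 to -0.47 in Late. Under it 7 members were called lower over all nuclei, 1 in Int and 5 in Late. The share of all genes called lower became 31.2%, 21.6% and 28.2%, and that of genes called higher 17.1%, 6.95% and 25.9%. Quantile normalization gave 16.3% lower and 14.4% higher over all nuclei, 10.4% and 10.7% in Int and 20.2% and 17.6% in Late, and cyclic loess gave 13.6% and 16.0%, 8.51% and 11.5%, and 17.7% and 19.6%. Groups without overlap counted 4, 3 and 4 members with all KO libraries lower, where 19.3%, 14.4% and 22.7% of all genes were in that state, and 1, 0 and 0 with all KO libraries higher, where it was 36.1%, 22.8% and 36.8%.

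Whether the KO effect differed between Late and Int nuclei was tested on the Late minus Int differences within each library. For Optn these were 0.02, -0.16 and -0.22 in WT and -0.44, -0.39 and -0.47 in KO, with no overlap, and the difference of effects was -0.31 (SE 0.08). It did not pass the adjustment over 15873 genes (limma, unadjusted p = 0.0066, adjusted p = 0.127), in a fit that called 35 genes, or 0.221%. The variance trend of that fit followed the mean Late minus Int difference of a gene, not its mean score. Without 1 library at a time that fit called 0 to 819 genes, the 819 without the third WT library. Over 18 alternatives the adjusted p of Optn ran from 0.00516 to 0.376 and was under 0.05 in 2 of them, the mean of log2 values per nucleus (-0.11) and a variance trend on the mean level, the latter added after the data were seen. The other 8 members had differences of effects between -0.06 and 0.08, all with adjusted p of 0.480 or more. Among them Map1lc3b was called with the mean of log2 values per nucleus (-0.12, adjusted p = 0.00640). In the fit used here 1 of 9 members and 2799 of 15873 genes had an unadjusted p under 0.05.

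The authors' clusters mostly held nuclei of 1 genotype, so for most of them cluster and genotype cannot be told apart. Late nuclei were 97.4% KO in cluster C2 and 99.3% WT in cluster C3. Of the Int clusters, C8 and C10 were 99.4% and 99.9% KO, C6, C9 and C11 were 98.7%, 99.0% and 99.9% WT, and C5 was 27.0% WT and 73.0% KO. In the Early cluster C7 the shares were 49.6% WT and 50.4% KO. Clusters C1 and C4 held under 50 nuclei in each library and are left out.

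**Figure D4:**
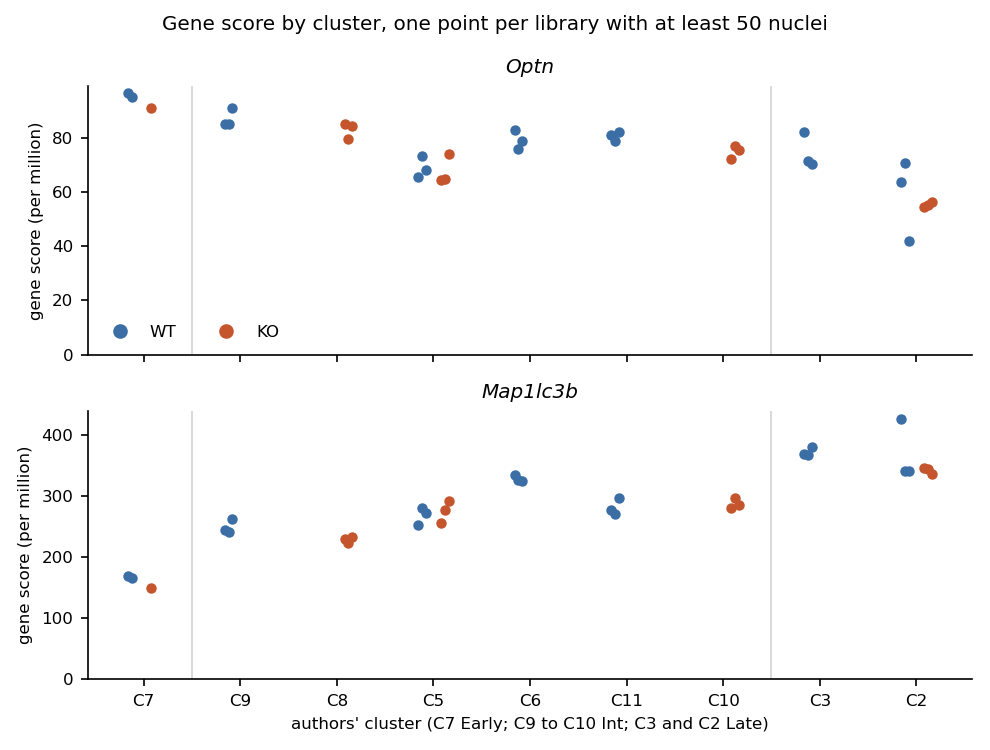
Scaled gene score, summing to 1000000 over genes (y axis), of Optn and Map1lc3b by the authors' cluster (x axis), 1 point per library with at least 50 nuclei, WT blue and KO red. Optn has its lowest KO values in C2 (54.5 to 56.2), and Map1lc3b is lowest in the Early cluster C7 (149 to 169) for both genotypes.

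Optn was highest in the Early cluster C7, at 95.0 to 96.5 in WT and 91.3 in KO. The Int clusters of mostly WT nuclei scored 85.0 to 91.0 (C9), 78.8 to 82.1 (C11) and 76.0 to 82.8 (C6), and those of mostly KO nuclei 79.6 to 85.1 (C8) and 72.1 to 77.1 (C10), so only some of these ranges overlapped. C10 lay below C11, C8 and C9, and C8 overlapped C6 and C11 and, at its upper end, C9. Late nuclei scored 70.4 to 82.1 in C3 and, for KO, 54.5 to 56.2 in C2, with no overlap. The few WT nuclei in C2, 58 to 68 per library, scored 63.8, 70.8 and 42.0, a spread that covered the KO values. An Optn score above 0 was seen in 21.88%, 20.69% and 17.65% of them, against 42.74%, 42.45% and 45.26% of the KO nuclei in C2. Their median fragments were 1919.5 to 2258.5, against 6091.5 to 6594 in KO, so this overlap rests on few shallow nuclei. Map1lc3b scored 241 to 262 in C9, 270.5 to 297 in C11 and 324 to 334 in C6, against 223 to 233 in C8 and 280 to 297 in C10. Its late clusters were also apart, at 367 to 380.4 in C3 and 336 to 346 in C2 for KO. The few WT nuclei in C2 scored 426, 341 and 341 and overlapped the KO values. C3 held 4331, 2881 and 2847 WT nuclei and C2 held 2134, 2490 and 2446 KO nuclei. These counts are close to those of all Late nuclei in the same libraries (4527, 3021 and 2971, and 2176, 2549 and 2508). For both genes, C3 against C2 therefore largely repeats the comparison of Late nuclei. The share of all genes without overlap between C3 and C2 was not computed.

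Of the other members, Bnip3l scored 84.2 to 90.0 in C7, 83.0 to 114 in C5, 99.8 to 124 over C8 to C11 and 185 to 198 in C3, so that C5, an Int cluster, overlapped the Early cluster. Gabarapl2 scored 60.6 to 63.3 in C7, 77.5 to 85.0 in C8 and C9, 104 to 115 in C10 and C11 and 164 to 168 in C3. Its values in C5 (85.6 to 121) ran from just above C8 and C9 to above C10 and C11, and those in C6 were 117 to 126. Foxo3 in C7 (219 to 239) overlapped the Int clusters C9 and C11 (219 to 252) and lay above C10 (206 to 217). Fundc1 in C9 (8.49 to 9.20) overlapped the Late cluster C3 (8.01 to 9.37). Clusters C5 and C2 held at least 50 nuclei in all 6 libraries. In C2, with 58 to 68 WT nuclei per library and no test made, Bnip3l scored 289, 225 and 218 in WT against 182 to 188 in KO, and Pink1 scored 188, 206 and 232 against 164 to 173. These pairs of ranges did not overlap, and those of the other 7 members did. The share of all genes in that state in C2 was not computed. The WT nuclei of C2 held medians of 1919.5 to 2258.5 fragments, against 6091.5 to 6594 in KO. Fewer of them scored above 0, at 41.4% to 48.4% against 70.2% to 75.1% for Bnip3l and 25% to 41.2% against 57.2% to 61.9% for Pink1. The part of depth in these scores was not tested. Within C5, Optn scored 65.6, 73.2 and 68.1 in WT and 64.4, 65.0 and 74.1 in KO, and the groups overlapped (log2 change -0.02, SE 0.13, limma adjusted p = 0.958). Map1lc3b in C5 changed by 0.03 (SE 0.09, adjusted p = 0.918). None of the 9 members was called there, at a background of 0.890% of 19438 genes, and 0 members and 2599 genes had an unadjusted p under 0.05. The standard errors in C5, 0.09 to 0.40 for the members, were above those of the Int fit, and the WT sets there held 143 to 261 nuclei.

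Of a list of 77 other autophagy genes, 76 were in the table, and in Late nuclei 17 of the 75 tested were called higher in KO and 16 lower, with a median log2 fold change of 0.00 (rounded). Over all nuclei it was 16 higher and 14 lower of 75 with a median of -0.02, and in Int 10 higher and 8 lower of 76. Those shares stand against 43.3% of all genes called in either direction over all nuclei, 19.8% in Int and 51.4% in Late. By step, the changes in Late nuclei went both ways. The ULK complex had 1 gene higher and 2 lower of 4, the phosphatidylinositol 3-kinase complex 2 higher and 3 lower of 7, ATG8 conjugation 2 higher and 2 lower of 11, lysosome and fusion 2 higher and 2 lower of 13, nutrient sensing 2 higher and 2 lower of 9, and the Pink1 and parkin partners 2 higher and 2 lower of 10. Membrane supply had 0 higher and 1 lower of 7, the other cargo receptors 2 higher and 1 lower of 8, and the other ATG8 proteins 2 higher and 0 lower of 3.

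**Figure D5:**
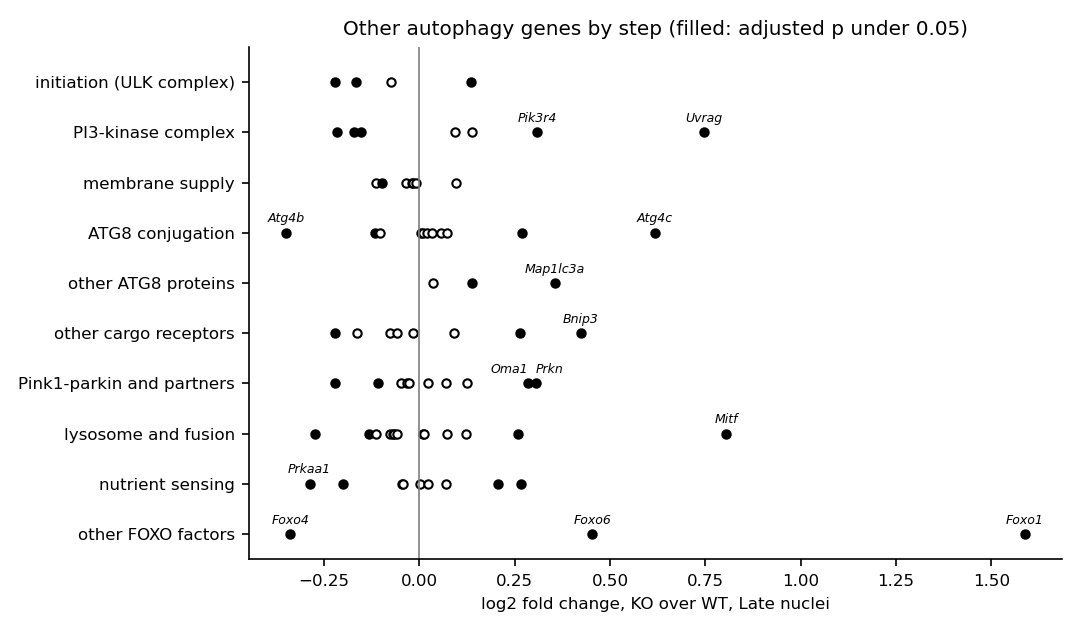
KO minus WT log2 fold change in Late nuclei (x axis) of the other autophagy genes by step (y axis), filled where the adjusted p was under 0.05, with the called genes of largest change labelled. Foxo1 (1.59), Mitf (0.80) and Uvrag (0.75) lie farthest to the right and Atg4b (-0.35) farthest to the left.

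Foxo1, a FOXO factor related to Foxo3, had the largest rise on the list. It scored 6.74, 7.52 and 9.20 in Late WT and 25.0, 25.1 and 25.9 in Late KO, a rise of 1.59 on the log2 scale (SE 0.10) at a limma adjusted p of 7.13e-08, and it rose by 0.80 in Int. Uvrag, a subunit of the phosphatidylinositol 3-kinase complex that acts in membrane fusion, scored 36.3, 39.6 and 40.0 in Late WT and 66.5, 68.0 and 61.9 in Late KO, and rose by 0.75 in Late and 0.56 in Int. Mitf, of the family of lysosomal gene regulators, rose by 0.80 in Late (5.39 to 6.16 in WT, 9.58 to 11.9 in KO) and was at 0.17 in Int (limma adjusted p = 0.347). Gabarapl1, an ATG8 protein close to Gabarapl2, rose by 0.34 in Int and 0.14 in Late. Its call in Int was kept in 13 of 19 alternatives and lost under quantile normalization, loess, median centring, no variance trend, cluster C5 alone and without the second KO library, with adjusted p up to 0.648. Unlike these, Foxo4 fell by 0.33 over all nuclei, by 0.30 in Int and by 0.34 in Late. Atg4b, the protease that prepares ATG8 proteins for attachment, fell by 0.28, 0.23 and 0.35, and Prkaa1, a catalytic subunit of the AMP-activated kinase that acts on Ulk1, fell by 0.26, 0.23 and 0.29. Averaging log2 values per nucleus gave smaller values, all past the threshold in Late: 0.16 for Foxo1, 0.20 for Uvrag, 0.05 for Mitf, and -0.10 each for Foxo4, Atg4b and Prkaa1. The Int calls of Foxo1, Uvrag, Foxo4, Atg4b and Prkaa1 were lost in cluster C5 alone, that of Foxo4 also with the mean of log2 values and without the second KO library, and those of Atg4b and Prkaa1 also with no variance trend. They were kept in 18 of 19 alternatives for Foxo1 and Uvrag, 16 for Foxo4 and 17 for Atg4b and for Prkaa1, with adjusted p up to 0.937. None of the 75 genes was called for a difference of KO effect between Late and Int, where 35 of all 15873 genes, or 0.221%, were called.

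Genes within 100 kb of each member were read beside it, and whether their scores share fragments was not tested. Optn had 4 tested neighbours over all nuclei. Phyh had the largest value, 0.21 (limma adjusted p = 0.171), and the called neighbour, named after its values were seen, was Mcm10, 7851 bases away, which fell by 0.17 over all nuclei and 0.22 in Late. Map1lc3b had 4 neighbours, of which Fbxo31 rose by 0.14 (adjusted p = 0.0260) over all nuclei and the others were not called, and in Late 0 of the 4 were called. Gabarapl2 had 7, of which 4 fell over all nuclei, and Chst5, with the largest value, was at 0.31 (adjusted p = 0.0570). Sqstm1 had 8, of which 2 fell, and Mrnip, which ends 37 bases from it, had the largest change, -0.14. Pink1 had 7, of which 2 rose, with Sh2d5 at 0.35. Ulk1 had 6, of which 1 rose (Ttc28, 0.16) and 2 fell, Bnip3l had 2, of which Pnma2 rose by 0.34, Foxo3 had 1, Afg1l, at -0.02, and Fundc1 had 0.

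The genes whose scores ran most like each member over the 12 library and class means were named by the 3 highest Pearson r, leaving out genes within 1 Mb. For Optn they were Slc35a3, A730036I17Rik and Tlnrd1, each at r = 0.98. For Map1lc3b they were Hscb, Pabpc1 and Chek2, each at r = 0.99, and for Bnip3l Rnf10, Acbd5 and Ubxn7, each at r = 0.99. For Foxo3 they were Slc43a1, Stradb and Fhdc1. For Fundc1, whose scores were low, they were Gm13547 (r = 0.97), Mir6941 (r = 0.92) and Cd63 (r = 0.91). Ulk1 was most like Gpcpd1, Ube2b and Tcp11l2, Gabarapl2 most like Ubap1, Tmbim6 and Rmc1, Sqstm1 most like Cdk12, Tbcel and Syvn1, and Pink1 most like Sel1l, Atp5c1 and Kin. The points share libraries and classes, so these r values are descriptions.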

How the data were processed

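Gene scores of nuclei from 6 mouse ATAC libraries were analysed; the genes compared and the lists used were chosen with earlier results of these data known. The authors deposited the gene scores as a signal scaled within each nucleus to a sum of 9999.855 to 10000.12, and per the submitters' processing notes the reads were processed with Cell Ranger on mm10. How fragments were weighted by distance was not given in the sources used here; the columns of the deposited table of nuclei are those written by ArchR. That table gives, per the file headers, the count of fragments (at least 1000 per nucleus), the enrichment and doublet scores, the nucleosome ratio, genotype, class and cluster, and lists each nucleus 2 times. How the authors treated doublets was not given, and no nuclei were removed here. Each library's mean score was taken where it held at least 50 nuclei of the set, scaled to 1000000, and compared as log2(score + 1) with limma 3.58.1 in R 4.3.3 (mean-variance trend, two-sided, genes with a mean of at least 5, Benjamini-Hochberg threshold 0.05). A fold change on this scale understates the change of low scores. In the fit of the difference of effects the variance trend followed the mean Late minus Int difference instead of the mean score. Beside the members, genes were named by rule: the 3 highest and 3 lowest called list genes of each fit, the neighbour within 100 kb with the largest change, and the 3 genes of highest r. Tested on simulated data, changes of 1 were found in 100% of genes and changes of 0.3 in 61% (all nuclei), 48% (Int) and 78% (Late), with 5.85%, 1.99% and 5.32% of calls false. The simulated noise was independent between genes, its spread followed the mean score alone, and few genes were changed. These rates therefore need not hold for the real libraries. Normalization, pseudocount, filter, variance model, averaging, matched nuclei, replicate block and left-out libraries were the alternatives. Python 3.11.15, numpy 2.4.6, pandas 2.3.3 and matplotlib 3.10.9 were used for tables and figures. The RNA, CUT&RUN and Hi-C libraries and the stem and progenitor libraries were not analysed here.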

Additional observations from a re-analysis of the deposited data

How the results depend on the processing

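Optn stayed lower in KO and past the threshold in 18 of 18 alternatives over all nuclei and in 18 of 18 in Late nuclei, while Map1lc3b did so in 5 of 18 and 17 of 18. Where a value below differs from that of the report, the cause was not tested. The counts given are of members called lower (2 over all nuclei, 0 in Int, 2 in Late and 0 for the difference of KO effects between Late and Int), called genes of the other autophagy list (18 in Int, 0 for the difference of effects) and all genes called (7661 over all nuclei, 3858 in Int, 8161 in Late and 35 for the difference of effects).

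Members called lower over all nuclei were 1 under quantile normalization, cyclic loess, a pseudocount of 10, a minimum score of 20, no minimum, no variance trend and the replicate block, and 7 under median centring. Median centring gave 1 in Int and 5 in Late, the mean of log2 values per nucleus 4 in Late and 2 for the difference of effects, no variance trend 1 in Late, and a variance trend on the mean level 1 for the difference of effects. Outside quantile normalization, cyclic loess and median centring, the share of all genes called lower was not computed. These counts of members therefore cannot be set against it. Called list genes in Int were 5 with no variance trend and 0 in cluster C5 alone. For the difference of effects they were 1 under quantile normalization, under median centring and with no variance trend, 13 with the mean of log2 values and 4 with the trend on the mean level. Genes called over all and Late nuclei were 4244 and 4560 with a minimum score of 20. A changed minimum also changes how many genes are tested. That number was not given for these settings, so their counts cannot be read as shares. In Int they were 2419 with no minimum, 1921 with no variance trend and 171 in C5 alone. That C5 setting took only the nuclei of C5 classed as Int, 520 to 590 per KO library. The C5 fit reported above took all its nuclei, 528 to 598 per KO library, so their values differ slightly. For the difference of effects they were 199 (quantile), 113 (loess), 279 (median centring), 216 (pseudocount 10), 218 (minimum 20), 0 (no minimum), 206 (no variance trend), 2196 (mean of log2 values), 119 (nuclei matched on fragments) and 1017 (trend on the mean level).

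Some values changed sign, among them that of Atg4b in Int, which was called at -0.23. Over all nuclei Fundc1 was -0.060 under quantile normalization and -0.053 under loess, Ulk1 0.0039 and 0.016, and under loess Bnip3l was 0.0017 and Sqstm1 0.0073. In Int, Sqstm1 was 0.0025, 0.012 and 0.016 and Pink1 0.023, 0.017 and 0.014 under quantile normalization, loess and the mean of log2 values, and Bnip3l was 0.0050 under the last. In C5 alone Bnip3l was 0.034, Gabarapl2 0.0040, Map1lc3b 0.025 and Atg4b 0.039. In Late, quantile normalization and loess gave Bnip3l 0.013 and 0.014, Fundc1 -0.16 and -0.14, Ulk1 0.053 and 0.052 and Sqstm1 0.0076 and 0.0097, and Ulk1 was 0.0049 among matched nuclei and 0.0016 among as many nuclei drawn at random. For the difference of effects, Sqstm1 was 0.0052 under quantile normalization and Foxo3 -0.051 there, -0.018 under loess, -0.061 with the mean of log2 values and -0.0046 among matched nuclei. The mean of log2 values gave Bnip3l -0.044, Ulk1 -0.017 and Gabarapl2 -0.055, and matched nuclei gave Gabarapl2 -0.020 and Fundc1 0.050.

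Leaving out each library in turn gave 1 to 2 members lower over all nuclei, with 5355 to 8440 genes called in either direction. In Late it gave 2 to 3 members lower, with 6616 to 7892 genes called. The share of all genes called lower was not computed for these refits. They called 8 to 22 list genes and 2547 to 4782 genes in Int, and 0 to 3 list genes and 0 to 819 genes for the difference of effects. The 2547 came without the first KO library, and the 819 without the third WT library. Values that changed sign ran from -0.12 to 0.0059 for Bnip3l over all nuclei, from -0.042 to 0.021 for Sqstm1 and from -0.060 to 0.0038 for Pink1 in Int, and from -0.020 to 0.020 for Ulk1 in Late. For the difference of effects they ran from -0.22 to 0.059 for Fundc1, -0.055 to 0.052 for Gabarapl2, -0.076 to 0.010 for Sqstm1, -0.011 to 0.052 for Bnip3l and -0.0089 to 0.022 for Foxo3.

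The labels give both genotypes the same replicate numbers, but the correlation of same-numbered deviations was not above 0.1 in every pair: r was -0.12, -0.27 and 0.21 over all nuclei, 0.13, -0.08 and 0.19 in Int and 0.09, 0.05 and 0.05 in Late. The numbers were therefore not taken as pairs, although in Late, unlike Int and all nuclei, each library correlated best with its own number. With the replicate block, Map1lc3b over all nuclei had a limma adjusted p of 0.0711 and 12 genes were called for the difference of effects. The random draw of nuclei and, for the difference of effects, the matched nuclei and the trend on the mean level were chosen after seeing the data. Fundc1 had a score above 0 in 5.82% to 7.54% of Late nuclei, against 41.9% or more for each other member. The number of libraries, 3 a group, limits the precision of each test, and a member not called need not be unchanged.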
